A study of Mus musculus with 24 samples.

Results

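The subject here is the difference between the LPS response of Hdac9 knockout (KO) macrophages and that of wild-type (WT) macrophages: the log2 fold change from untreated to LPS in KO minus the same fold change in WT. It was taken from 16 of the 24 libraries of the series, all those labelled WT or KO: 4 untreated WT, 4 WT after LPS, 4 untreated KO and 4 KO after LPS. A positive difference means that a gene rose more, or fell less, in KO than in WT. The other 8 libraries carry the deletion of a cis-regulatory element (dCIS) and entered the fit, where they shared the estimate of spread. The genotypes are given only as WT, KO and dCIS, and the sources used here do not state the allele, the strain, or the sex and age of the mice.

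All cells were mouse bone marrow-derived macrophages (BMDM), which are bone marrow cells grown into macrophages with medium conditioned by L929 cells. They were left untreated or given 100 ng/ml lipopolysaccharide (LPS) for 6 hours in medium without serum. RNA was sequenced from oligo-dT captured libraries, and the deposited table gives counts per gene. The labels number the libraries of each group 1 to 4 but do not say whether each number is an animal or a culture of its own, and p-values here reflect only how far libraries of a group lie apart, possibly for technical reasons. In bulk RNA, a change in the number of cells that express a gene and a change in RNA per cell cannot be told apart.

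HDAC9 is a class IIa histone deacetylase, a family of proteins that shuttle between nucleus and cytoplasm and hold MEF2 transcription factors in a repressed state. LPS is a component of the outer membrane of Gram-negative bacteria that binds the receptor TLR4 with its partner MD-2. TLR4 signals through the adaptors MyD88 and TRIF to NF-kB, to MAP kinases and to interferon regulatory factors, and macrophages answer with cytokines, chemokines, interferon-stimulated genes and the priming of the NLRP3 inflammasome. The title of the series ties HDAC9 to inflammation that depends on the inflammasome, so the comparison asks whether the loss of Hdac9 changes the size of that answer.

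Total counts lay between 14636058 and 19181707 per library over the 16 libraries. Levels are in CPM, the usual count relative to a library size that was scaled by TMM, and errors of means are the SD of 4 libraries. A gene was called at a Benjamini-Hochberg adjusted p under 0.05 in the quasi-likelihood test of edgeR over 14757 tested genes. The 15 macrophage identity markers, among them Adgre1, Csf1r and Cd68, summed to 20096 to 23193 CPM in untreated WT and 20773 to 23024 CPM in untreated KO. After LPS they summed to 24988 to 28245 CPM in WT and 24353 to 28624 CPM in KO. Neutrophil markers reached at most 4.13 CPM in sum and dendritic cell markers at most 2.32 CPM, each with 2 of the list's genes tested; the lymphocyte sum, of 2 tested genes, lay between 8.29 and 34.7 CPM. The sum of 5 osteoclast markers was 102 to 196 CPM in untreated and 54.9 to 83.4 CPM in LPS libraries, and that of 5 fibroblast and endothelial markers 7.84 to 11.0 and 56.1 to 86.6 CPM; in both lists the ranges of WT and KO overlapped at each treatment, and their part in the results was not tested. The untreated KO library 2 had the highest total and stood apart from the other untreated KO libraries in several genes, so the value without it is given where it turned the sign of a difference or moved a call, and for Adi1.

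Hdac9 itself was measured in every library. Untreated WT held 9.15, 12.4, 11.4 and 12.0 CPM of Hdac9 and WT after LPS 11.4, 16.5, 10.4 and 11.0 CPM. KO held 1.31, 0.884, 0.841 and 1.13 CPM untreated and 0.464, 0.0898, 0.334 and 0.319 CPM after LPS. The KO libraries were below all WT libraries at both treatments, which goes with their label. The KO levels rest on 17 to 27 counts per library untreated and 1 to 5 after LPS. LPS changed Hdac9 by a log2 fold change of 0.13 in WT and -1.76 in KO, a difference of -1.89 ± 0.479 (SE) with a 95% interval from -2.87 to -0.90, which was not called in the fit of filtered genes (adjusted p = 1.00 in edgeR, which is 0.0229 where no filter on low counts is applied).

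LPS itself changed most of the transcriptome in both genotypes: 9055 genes (61.4%) were called in WT and 9085 (61.6%) in KO. The difference between these responses was called for 3 of 14757 genes (0.0203%): Nol10 and Adi1, whose difference was positive, and Rnf144a, whose difference was negative. At an unadjusted p under 0.05 there were 258 genes (1.75%), of which 157 were higher and 101 lower in the KO response. This share was 2.63% with the replicate number as a block within genotype, 3.04% in the 16 libraries alone, and 4.70% with both. All are below the 5% that chance gives when no gene differs. The share thus depends on the fit, and few calls do not show that the responses were alike. The median difference over all tested genes was 0.00.

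Nol10 encodes a nucleolar protein of the small-subunit processome, the particle that processes ribosomal RNA for the small ribosomal subunit. In untreated WT its level was 24.3, 19.8, 19.2 and 16.8 CPM, and in untreated KO 21.9, 16.4, 20.8 and 18.1 CPM. After LPS it was 37.9, 35.4, 35.4 and 35.8 CPM in WT and 84.9, 96.3, 82.8 and 81.8 CPM in KO. The untreated groups overlapped, and after LPS every KO library was above every WT library. Nol10 rose by a log2 fold change of 0.85 ± 0.123 (SE) in WT and 2.16 ± 0.125 in KO. The difference was 1.31 ± 0.173 (SE), with a 95% interval from 0.96 to 1.67 and an adjusted p of 0.000731 in edgeR. KO against WT was -0.06 untreated (adjusted p = 0.815) and 1.26 after LPS (adjusted p = 2.2e-07), both in edgeR.

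Rnf144a encodes a RING-between-RING E3 ubiquitin ligase. Its level was low in all groups: 1.07, 0.512, 0.572 and 0.824 CPM in untreated WT and 0.920, 1.00, 0.742 and 1.22 CPM in untreated KO. After LPS WT held 4.82, 3.80, 2.90 and 3.31 CPM and KO 0.742, 0.719, 0.418 and 0.159 CPM. The untreated groups overlapped, whereas after LPS all KO libraries were below all WT libraries. These KO levels rest on 8, 8, 5 and 2 counts, against 59, 49, 37 and 41 counts in WT. Rnf144a rose by a log2 fold change of 2.31 ± 0.303 (SE) in WT and fell by 0.95 in KO (adjusted p = 0.0325 in edgeR). The difference was -3.26 ± 0.482 (SE), with a 95% interval from -4.25 to -2.27 and an adjusted p of 0.00291 in edgeR, so the gene went in opposite directions in the 2 genotypes.

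Adi1 encodes acireductone dioxygenase 1, an enzyme of the methionine salvage pathway. Untreated WT held 22.5, 26.8, 24.5 and 27.7 CPM of Adi1 and untreated KO 42.3, 71.9, 38.1 and 45.6 CPM. After LPS Adi1 stood at 4.17, 4.43, 3.92 and 5.82 CPM in WT and at 23.8, 32.0, 18.7 and 24.6 CPM in KO. KO was above WT without overlap at both treatments, and both genotypes were lower after LPS. On the log2 scale Adi1 fell by 2.47 in WT, with an SE of 0.189, and fell by 1.00 in KO, with an SE of 0.164. The difference was 1.47 ± 0.248 (SE), with a 95% interval from 0.96 to 1.98 and an adjusted p of 0.0163 in edgeR. The KO to WT difference thus grew from 0.96 untreated (adjusted p = 0.00125) to 2.43 after LPS (adjusted p = 4.3e-09), both in edgeR. The call depends on the set of libraries: Adi1 had an adjusted p of 0.0869 when only the 16 libraries were fitted, and of 0.0546 to 0.0882 without any of 7 single libraries, which were WT untreated 4, WT LPS 1, 2 and 3, KO untreated 1 and 4, and KO LPS 2. Without KO untreated library 2, the highest of its group, the difference was 1.70 with an adjusted p of 0.000179 in edgeR.

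**Figure D1:**
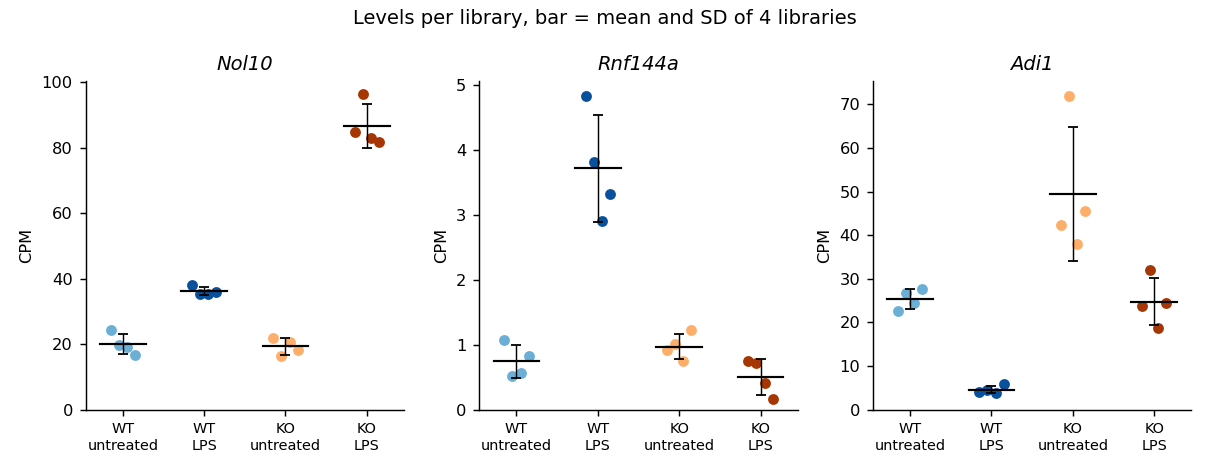
Levels in CPM of Nol10, Rnf144a and Adi1 in each library (points) of untreated WT, WT after LPS, untreated KO and KO after LPS, with the mean and SD of 4 libraries. After LPS the KO libraries lie at 81.8 to 96.3 CPM for Nol10, above all WT libraries, and at 0.159 to 0.742 CPM for Rnf144a, below them; for Adi1 KO is above WT at both treatments.

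The dCIS libraries give a second genotype with Hdac9 present (9.89 to 21.2 CPM). For Nol10 they held 15.9 to 20.3 CPM untreated and 27.5 to 37.9 CPM after LPS, for Rnf144a 0.621 to 1.22 and 3.73 to 7.15 CPM, and for Adi1 23.8 to 26.3 and 5.19 to 7.18 CPM. In each of these 3 genes the dCIS libraries after LPS overlapped the WT range and not the KO range. The LPS response of KO differed from that of dCIS in 4 genes (0.0271% of those tested), with the KO libraries shared with the comparison to WT. They were Nol10 (1.26, adjusted p = 0.000781 in edgeR), Rnf144a (-3.56, adjusted p = 0.000781), Med21 (0.97, adjusted p = 0.0471) and Lsm11 (1.00, adjusted p = 0.0471). For Adi1 this difference was 1.06, with an adjusted p of 0.139 in edgeR. In the dCIS libraries 3 and 4 after LPS, 17628 and 15997 genes were detected by 1 count or more, fewer than the 20458 or more of each WT and KO library, and their part in the comparison with dCIS was not tested. These libraries also entered the estimate of spread that all libraries share.

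Sequences from 250 bases before to 50 bases after the start of a gene were at hand in RefSeq on GRCm38.p6 for 2 of the 3 called genes, Nol10 and Rnf144a, and are printed because these genes had like levels in untreated WT and KO and separate levels after LPS. They were searched on both strands for 4 sets of letters, and matches are in capitals. These were MEF2 (CTA and TAG with 4 bases of any kind between them), NF-kB (GGG and CC with 5 bases between), interferon response (GAAA and GAAA with 2 bases between) and AP-1 (TGANTCA). The windows, 5′ to 3′ on the strand of the gene, are Nol10 at chr12:17348243-17348542, plus strand, and Rnf144a at chr12:26415213-26415512, minus strand.
Nol10: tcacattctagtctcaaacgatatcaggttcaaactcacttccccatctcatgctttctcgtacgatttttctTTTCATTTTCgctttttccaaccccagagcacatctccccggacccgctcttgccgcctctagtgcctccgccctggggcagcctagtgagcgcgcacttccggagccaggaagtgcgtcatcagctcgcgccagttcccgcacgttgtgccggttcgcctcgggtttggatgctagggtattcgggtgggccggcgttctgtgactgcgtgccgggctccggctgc
Rnf144a: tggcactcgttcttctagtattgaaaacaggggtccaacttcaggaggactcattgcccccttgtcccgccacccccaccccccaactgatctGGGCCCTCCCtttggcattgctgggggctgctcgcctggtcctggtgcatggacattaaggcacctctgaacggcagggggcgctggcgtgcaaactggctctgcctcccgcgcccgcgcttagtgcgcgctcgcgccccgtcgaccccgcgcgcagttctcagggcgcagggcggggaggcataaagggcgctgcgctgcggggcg
The capitals mark 1 interferon response match on the reverse strand of Nol10, TTTCATTTTC, and 1 NF-kB match in Rnf144a, GGGCCCTCCC. Of 32851 promoter windows of this length, 3.44% held the interferon response letters, 50.8% the NF-kB letters, 3.69% the MEF2 letters and 7.81% the AP-1 letters. MEF2 and AP-1 letters were in neither window. The match describes the reference sequence only.

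Several further genes were called in an alternative fit and not in the fit of all libraries with the filter and without a block. The replicate numbers pair the untreated and LPS libraries within a genotype, and with the number as a block within genotype 4 genes (0.0271%) were called: the same 3 and Lrrfip1. With that block and the 16 libraries alone, 6 of 14289 genes (0.042%) were called, which added Med21 and Steap3. Adi1 had an adjusted p of 6.46e-05 with the block within genotype in edgeR, Nol10 of 0.000352 and Rnf144a of 0.00607.

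Lrrfip1 encodes a protein that binds nucleic acids and Flightless. Its level was 143, 125, 131 and 126 CPM in untreated WT and 152, 120, 132 and 132 CPM in untreated KO. After LPS WT held 103, 79.4, 79.1 and 84.6 CPM and KO 185, 136, 159 and 158 CPM. The groups overlapped untreated and were separate after LPS. Lrrfip1 fell by a log2 fold change of 0.60 in WT (adjusted p = 0.000540 in edgeR), and was 0.25 higher in KO (adjusted p = 0.123). The difference was 0.85 ± 0.197 (SE), with a 95% interval from 0.45 to 1.26. In edgeR its adjusted p was 0.613 without the block, and 0.00161 without the block and without the filter on low counts. With the block within genotype it was 0.00498, and in the 16 libraries alone 0.0414, both in edgeR.

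Med21 encodes a subunit of Mediator, the complex that links transcription factors to RNA polymerase II. It was at 17.8 ± 1.25 CPM in untreated WT and 17.3 ± 1.91 CPM in untreated KO (SD, n = 4). After LPS WT held 33.3, 33.5, 32.3 and 26.0 CPM and KO 45.0, 53.2, 56.2 and 54.1 CPM, without overlap. Med21 rose by a log2 fold change of 0.82 in WT and 1.59 in KO. The difference was 0.77 ± 0.179 (SE), with a 95% interval from 0.41 to 1.14, an adjusted p of 0.613 in the edgeR fit without a block, 0.0225 with the 16 libraries alone and the block, and 0.0361 in DESeq2. Steap3, an endosomal iron reductase, was higher in KO at both treatments (93.6 ± 12.3 against 36.2 ± 3.53 CPM untreated and 39.0 ± 7.35 against 9.31 ± 1.47 CPM after LPS, SD, n = 4). Its difference of response was 0.69, with a 95% interval from 0.25 to 1.13 and an adjusted p in edgeR of 1.00 without the block, 0.200 with the block within genotype, and 0.0315 in the 16 libraries alone with the block.

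Ccdc39, known for its role in the assembly of motile cilia, stood far apart between the genotypes after LPS. Untreated levels were 0.232, 0.140, 0.286 and 0.0485 CPM in WT and 0.00, 0.764, 0.247 and 0.188 CPM in KO. After LPS WT held 1.63, 1.40, 1.25 and 1.29 CPM and KO 18.4, 17.2, 19.0 and 19.5 CPM. The untreated KO values rest on 0, 19, 5 and 4 counts, so that library 2 held most of them. Ccdc39 rose by a log2 fold change of 2.92 in WT and 5.84 in KO, and KO was above WT after LPS by 3.72 (adjusted p = 1.62e-07 in edgeR). The difference of responses was 2.92 ± 0.770 (SE), with a 95% interval from 1.33 to 4.50. It was not called in the edgeR fit of filtered genes with all libraries. It was called in edgeR with all libraries and no filter on low counts (adjusted p = 0.00733). It was also called in edgeR without KO untreated library 2 (4.00, adjusted p = 0.0345) and in DESeq2 (adjusted p = 0.00601).

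**Figure D2:**
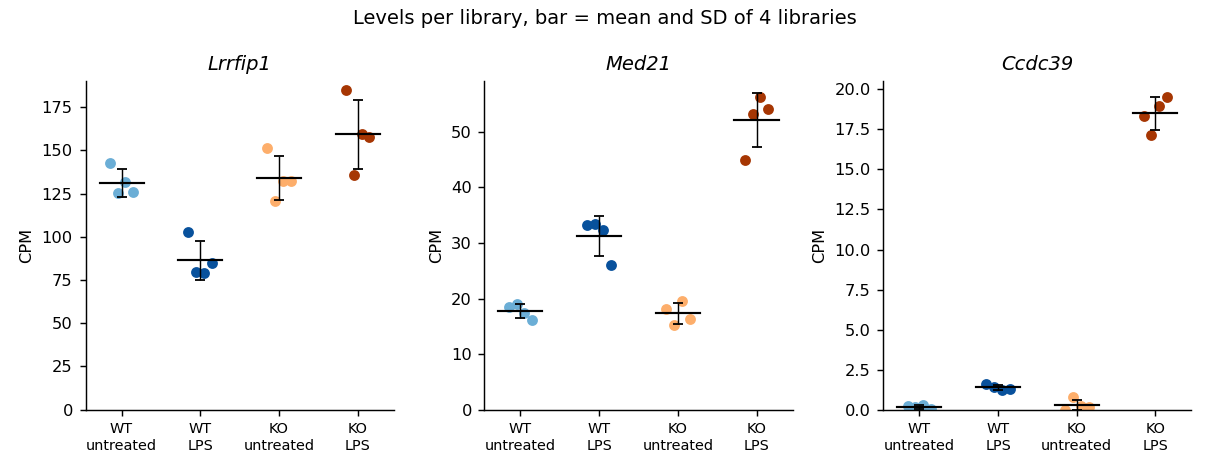
Levels in CPM of Lrrfip1, Med21 and Ccdc39 in each library (points), with the mean and SD of 4 libraries per group. The untreated groups overlap in all 3 genes, and after LPS each KO library lies above each WT library, at 136 to 185, 45.0 to 56.2 and 17.2 to 19.5 CPM.

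Among genes with at least 5 CPM in the highest group, 6 of the 8 with the smallest p on the negative side had a higher level in untreated KO than in untreated WT and a smaller gap after LPS; the other 2 were Hdac9 and Rnaseh1. The untreated libraries are part of the difference itself, so this describes its make-up. Lcn2, which encodes the siderophore-binding protein lipocalin 2, was at 11.9, 11.1, 5.48 and 7.08 CPM in untreated WT and 14.1, 13.9, 21.0 and 16.4 CPM in untreated KO. After LPS it was at 356, 281, 358 and 308 CPM in WT and 252, 249, 296 and 327 CPM in KO. The untreated WT and KO groups were separate, with KO higher, and the 2 genotypes overlapped after LPS. Untreated dCIS libraries held 11.9, 16.6, 21.0 and 14.9 CPM of Lcn2, within or near the range of untreated KO. The KO minus dCIS difference of the Lcn2 response was -0.12, with a 95% interval from -0.67 to 0.43. Lcn2 rose by a log2 fold change of 5.19 in WT and 4.10 in KO, a difference of -1.09 with a 95% interval from -1.65 to -0.52; it was not called with the filter on low counts and had an adjusted p of 1.04e-05 in edgeR without that filter.

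Cd47, which encodes the cell surface ligand that inhibits uptake by phagocytes, was called higher in KO both untreated (438 ± 32.3 against 253 ± 9.35 CPM, SD, n = 4) and after LPS (1038 ± 66.5 against 814.9 ± 24.4 CPM). It rose by 1.69 in WT and 1.25 in KO on the log2 scale. The difference was -0.44, with a 95% interval from -0.70 to -0.19, not called in edgeR and called in DESeq2 (adjusted p = 0.0250). Coro2a, an actin-binding coronin, Gnb4, a G protein beta subunit, Tram2, a translocation-associated membrane protein, and Trim30b, a tripartite motif protein, likewise had a KO to WT log2 fold change of 0.48 to 1.02 untreated and of 0.01 to 0.27 after LPS. Their differences of response were -0.45, -0.59, -0.47 and -0.92 with 95% intervals that did not include 0, and none of the 4 was called. Taken against dCIS in place of WT, these differences were -0.56, -0.69, -0.29 and -0.65, and that of Cd47 was -0.30. None of these was called either. On the positive side stood Snapc1, a subunit of a complex needed for the transcription of small nuclear RNA genes. It was lower in untreated KO (10.7 ± 0.396 against 15.2 ± 1.04 CPM) and at 16.0 ± 1.63 against 14.7 ± 0.370 CPM after LPS (SD, n = 4). Its difference was 0.63, with an interval from 0.25 to 1.02. Lsm11, a protein of the U7 particle that processes histone mRNA, was at 5.72 ± 0.122 and 6.07 ± 1.04 CPM untreated in KO and WT. After LPS it was at 18.8 ± 2.24 CPM in KO and 12.1 ± 0.388 CPM in WT (SD, n = 4), a difference of response of 0.73 with an interval from 0.35 to 1.11.

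All 3 called genes lie on chromosome 12, the chromosome of Hdac9. In the gene order of GRCm38, used only for order because the counts are on mm39, Nol10 was 51, Rnf144a 29 and Adi1 23 tested genes before Hdac9. Chromosome 12 held 514 tested genes, of which 23 (4.47%) had an unadjusted p under 0.05, the highest share among chromosomes with over 100 tested genes. Among the 20 tested genes on each side of Hdac9, 0 were called in the difference, and 2 on the side of Nol10 and 0 on the other had an unadjusted p under 0.05. A longer stretch was then drawn to end at Nol10, the outermost called gene, so that it holds all 3 calls by construction. Of the 51 tested genes from Nol10 to the gene before Hdac9, 3 were called in the difference and 8 had an unadjusted p under 0.05. In the same stretch 14 differed between KO and WT untreated and 12 after LPS. In the other 462 genes of the chromosome, which by this choice hold 0 called in the difference, the remaining numbers were 14, 37 and 25. Over all tested genes, 258 (1.75%) had an unadjusted p under 0.05 in the difference. The other backgrounds were 1079 (7.31%) for KO against WT untreated and 405 (2.74%) after LPS. On the whole of chromosome 12 these 2 shares were 10.1% and 7.39%, and on chromosome 16 they were 11.7% and 4.48%. Of the 10 tested genes of chromosome Y, 3 (30%) differed between KO and WT untreated and 3 after LPS. In the difference of responses, 0 of these 10 had an unadjusted p under 0.05. The sources used here do not state the sex of the mice or the strain in which the KO allele was made. A part of sex, of strain or of linked sequence in these differences was not tested.

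Direct neighbours in this stretch had unlike differences. Odc1, next to Nol10 in the order, encodes ornithine decarboxylase, the enzyme that opens polyamine synthesis. It was at 77.2 ± 9.94 CPM in untreated WT, 134 ± 12.1 CPM in WT after LPS, 30.3 ± 4.82 CPM in untreated KO and 38.2 ± 6.40 CPM in KO after LPS (SD, n = 4). The difference of its response was -0.46, with a 95% interval from -0.91 to -0.01, opposite in sign to Nol10. Hpcal1, the next gene, chosen after its values were seen, was lower in KO at both treatments (-0.69 untreated and -0.76 after LPS) with a difference of -0.07. Rsad2, also chosen after its values were seen, encodes viperin and follows Rnf144a in the order. Its mean rose from 70.3 to 17725 CPM in WT and from 97.2 to 20426 CPM in KO, a difference of -0.26 with an interval from -0.84 to 0.31. Cmpk2, the gene after Rsad2, had -0.45 with an interval from -0.95 to 0.05.

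Rnaseh1, which encodes a nuclease that cuts RNA in RNA-DNA hybrids, is next to Adi1. It was at 15.0 ± 1.11 CPM in untreated WT and 23.8 ± 0.746 CPM after LPS, and in KO at 11.6 ± 0.337 and 13.1 ± 1.19 CPM (SD, n = 4). Its difference was -0.49, with a 95% interval from -0.76 to -0.21, opposite in sign to Adi1 and not called. The KO minus dCIS difference of the Rnaseh1 response was -0.13, with an interval from -0.41 to 0.14. The strand setting of the counting is unknown, so reads of genes that overlap on opposite strands cannot be told apart. Acp1, a phosphatase gene of the same stretch, was 1.07 lower in KO untreated and 1.10 lower after LPS on the log2 scale (log2 fold changes of -1.07 and -1.10). Its difference of response was -0.03, with an interval from -0.35 to 0.30.

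**Figure D3:**
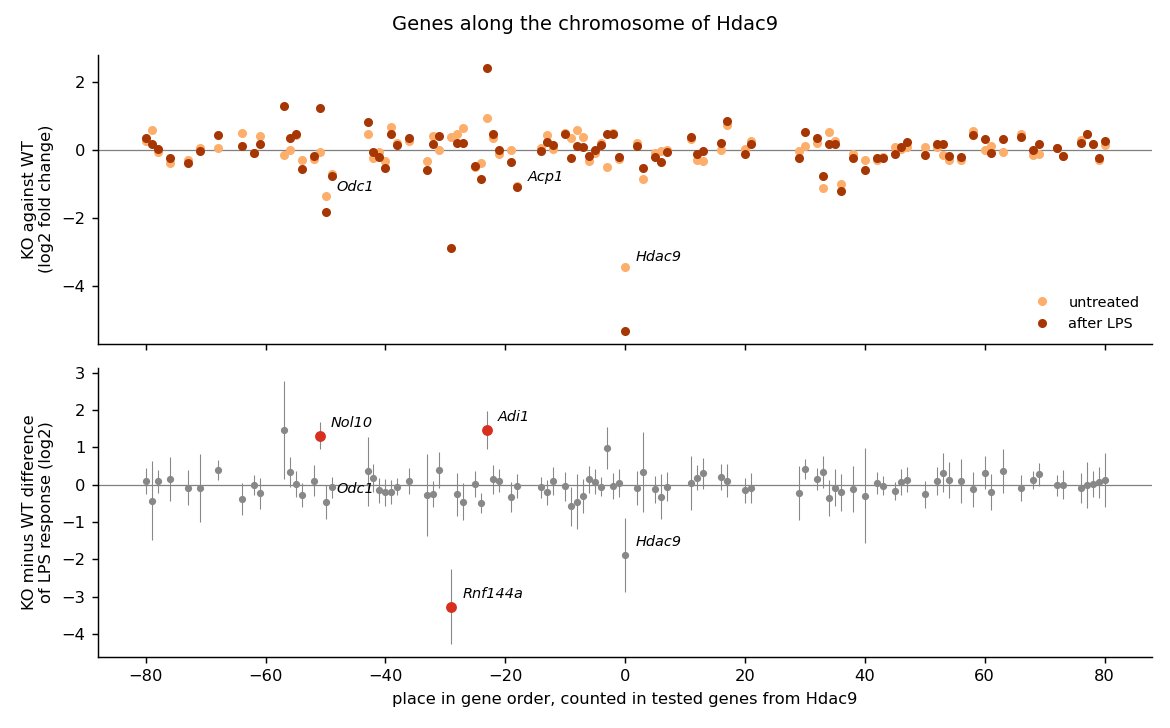
Genes along chromosome 12 by place in gene order, counted in tested genes from Hdac9 at 0, for genes with at least 5 CPM in the highest group and Rnf144a. The upper panel shows the log2 fold change of KO against WT untreated and after LPS, and the lower panel the difference of the LPS response with its 95% interval, with the 3 called genes in red at places 51, 29 and 23 before Hdac9.

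Genes that differed between the genotypes at both treatments were also looked at for the difference of their responses. KO and WT differed both untreated and after LPS in 267 genes, all of them in the same direction at both treatments. In 228 of the 267 the 95% interval of the difference of response lay within 1 log2 unit of 0, and 1, Adi1, was called in the difference. Such intervals were found in 64.9% of all tested genes and in 90.8% of those with at least 5 CPM in some group. The 267 were chosen by calls in the same libraries that form the difference, which favours a like offset at both treatments. The count therefore describes them and is no separate result. Among the 267 was Wdfy1, an endosomal protein that binds phosphoinositides. It was at 10.5 ± 1.74 and 34.1 ± 2.67 CPM untreated and 27.0 ± 4.01 and 76.9 ± 7.50 CPM after LPS in WT and KO (SD, n = 4). Its difference of response was -0.19, with an interval from -0.57 to 0.19. Wdfy1 lies on chromosome 1, as do Steap3 and Lrrfip1. On chromosome 1, 83 of 929 tested genes (8.93%) differed between KO and WT untreated and 46 (4.95%) after LPS. Over all tested genes these shares were 7.31% and 2.74%. A part of linked sequence was not tested there either. Ero1lb, an oxidase of the endoplasmic reticulum, and Akr1c12, an aldo-keto reductase, were lower in KO at both treatments, by a log2 fold change of -1.28 and -1.86 untreated and -1.78 and -2.30 after LPS. Their differences of response were larger than that of Wdfy1, -0.51 for Ero1lb (interval from -0.99 to -0.02, unadjusted p = 0.0413 in edgeR) and -0.44 for Akr1c12 (-1.07 to 0.19), and neither was called. The other 2 called genes, Nol10 and Rnf144a, were among the 138 that differed between the genotypes after LPS alone.

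Over all tested genes, the 95% interval of the difference lay within 1 log2 unit of 0, that is within a factor of 2, for 9574 of 14757 (64.9%). For the 9868 genes that reached at least 5 CPM in some group it did so for 8965 (90.8%). For the remaining genes, which include the 3 called, a difference of a factor of 2 or more was not excluded by the interval. In some of them, such as Rnf144a (-4.25 to -2.27), the whole interval lay beyond a factor of 2.

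The inflammasome and its products, named in the title of the series, were measured with intervals of unequal width. Of 26 tested members of the inflammasome and IL-1 family list, 0 were called, 0 had an unadjusted p under 0.05, the median difference was -0.07, and 21 intervals lay within 1 log2 unit of 0. Over all tested genes 0.0203% were called and 1.75% had such a p. Counts of 0 in a list of this size, and in the lists that follow, thus say little about their members. Nlrp3, the sensor of the NLRP3 inflammasome, had the smallest p of the list. It went from 60.0 ± 14.5 to 632 ± 116 CPM in WT and from 60.0 ± 6.45 to 802 ± 67.5 CPM in KO (SD, n = 4), a difference of 0.35 with an interval from -0.13 to 0.82. Leaving out single libraries moved it between 0.16 and 0.45, the lowest without WT untreated library 1, which held 81.8 CPM. Casp1, the protease that the inflammasome activates, had 0.09 (interval from -0.19 to 0.38), and its substrate Il18 had 0.10 (-0.23 to 0.43).

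Il1b went from 2.99 ± 1.77 to 921 ± 335 CPM in WT and from 3.04 ± 1.95 to 1059 ± 115 CPM in KO (SD, n = 4). Its difference was 0.20 with a wide interval, from -0.91 to 1.31, and the sign changed without WT untreated library 1 (-0.24) and without KO untreated library 2 (-0.0094). Il1a had 0.08, with an interval from -0.95 to 1.10, and -0.19 without KO untreated library 2, 1 of 5 libraries whose removal turned its sign. For both cytokines a KO response larger by a factor of 2 was within the interval.

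Of 22 tested inflammatory cytokines and chemokines, 0 were called and 0 had an unadjusted p under 0.05, the median difference was 0.18, and 5 intervals lay within 1 log2 unit of 0. Over all tested genes, 0.0203% were called and 1.75% had such a p. Tnf, a cytokine made early after TLR4 engagement, had 0.26 (interval from -0.31 to 0.83). Il6 had 0.58 (-0.96 to 2.13), the anti-inflammatory cytokine Il10 -0.16 (-0.76 to 0.43) and the interleukin 12 subunit Il12b -0.72 (-2.21 to 0.77). The untreated levels of Il6 and Il12b were below 1 CPM, whereas after LPS they reached 601 ± 175 and 321 ± 88.6 CPM in WT and 610 ± 84.0 and 315 ± 56.7 CPM in KO (SD, n = 4). Ifnb1, which encodes interferon beta, had the widest interval of these genes, from -0.23 to 4.02, at levels of 2.58 ± 1.16 CPM in WT and 2.55 ± 0.754 CPM in KO after LPS (SD, n = 4). The chemokines Cxcl10 and Ccl5 had -0.42 (-1.15 to 0.30) and 0.35 (-0.33 to 1.03).

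**Figure D4:**
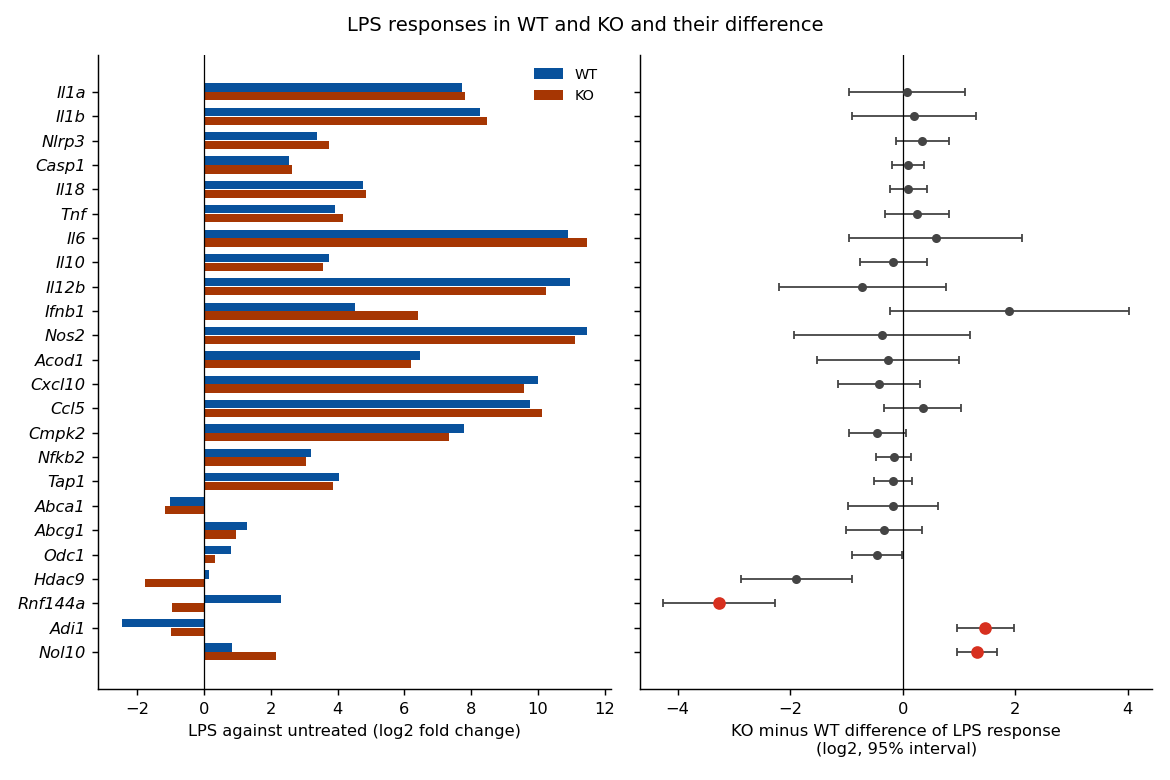
Left, log2 fold change from untreated to LPS in WT and KO for the named inflammatory, lipid and polyamine genes, Hdac9 and the 3 called genes. Right, the KO minus WT difference of these responses with its 95% interval, called genes in red; Casp1 (-0.19 to 0.38) is narrow and Ifnb1 (-0.23 to 4.02) wide.

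The interferon-stimulated genes gave narrower intervals. Of 36 tested members of the type I interferon response, 0 were called and 34 intervals lay within 1 log2 unit of 0. The median difference was -0.15, and 32 of 36 members were negative, against 7330 of 14757 tested genes. All members were measured in the same libraries, so their signs are not independent. Other lists leaned to one side as well. Negative were 12 of 13 genes of nitric oxide, arginine and itaconate and 12 of 15 of MHC class I presentation, and positive were 18 of 22 of cholesterol synthesis. With RLE size factors in place of TMM, 33 members of the interferon list were negative and its median was -0.18, beside a median of -0.03 over all genes. The median KO to WT log2 fold change of the list was 0.19 untreated, with 3 members called, and 0.04 after LPS, with 0 called. Over all tested genes 7.31% were called untreated and 2.74% after LPS, so these counts of called members do not set the list apart. Cmpk2, a nucleotide kinase induced by interferon, had the smallest p: it went from 29.1 ± 1.72 to 6386 ± 208 CPM in WT and from 45.7 ± 15.3 to 7337 ± 440 CPM in KO (SD, n = 4).

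Lists of the signalling chain stayed close to the median of all genes. The 22 tested TLR4 receptor and signalling genes had a median difference of 0.02 (0.00 with RLE), and 21 intervals within 1 log2 unit of 0. Irak4, a kinase of that chain, had the smallest p of the list at a difference of -0.24 (-0.54 to 0.07). The 19 NF-kB feedback genes had a median of 0.03 and 18 such intervals, and Nfkb2, which encodes an NF-kB subunit, had -0.16 (-0.47 to 0.14). The 15 genes of MHC class I presentation had a median of -0.05 with all 15 intervals within 1 log2 unit of 0; Tap1, a peptide transporter, had -0.18 (-0.52 to 0.16). Of 11 tested MHC class II and co-stimulation genes 7 intervals were within that range, and H2-DMb1, a chaperone of peptide loading, had -0.50 (-1.05 to 0.05). In each of these lists 0 members were called, beside 0.0203% of all tested genes.

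The relatives of Hdac9 were examined as a list of class IIa deacetylases and MEF2 factors with their kinases and corepressors. Of 16 tested members 0 were called, Hdac9 alone had an unadjusted p under 0.05, and the median difference was -0.05. Over all tested genes, 0.0203% were called and 1.75% had such a p. The class IIa members Hdac4, Hdac5 and Hdac7 had -0.20, -0.06 and -0.02, and the factors Mef2a, Mef2c and Mef2d 0.06, -0.05 and -0.12. Of the other histone deacetylases, 14 tested with a median of 0.07, Hdac8 had the smallest p (0.43, interval from -0.41 to 1.27).

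Nos2, which makes nitric oxide, and Acod1, which makes itaconate, are among the genes that rose most. In WT Nos2 went from 0.692 ± 0.775 to 1999.5 ± 203 CPM, and in KO from 0.930 ± 1.44 to 2221 ± 358 CPM (SD, n = 4). Of the untreated KO libraries, library 2 held 3.09 CPM and the others 0.194 to 0.235 CPM. The difference of the Nos2 response was -0.37 with an interval from -1.93 to 1.19, and 1.85 without that library. Acod1 had -0.26 (-1.53 to 1.00). In their list of 13 tested genes of nitric oxide, arginine and itaconate metabolism, the median was -0.09, 9 intervals lay within 1 log2 unit of 0, and Ass1, argininosuccinate synthase, had the smallest p (-0.55, interval from -1.52 to 0.42).

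Lists of lipid genes had medians near 0. All 22 cholesterol synthesis genes had an interval within 1 log2 unit of 0, with a median of 0.11, and Insig1, a sterol sensor partner, had the smallest p of the list (0.24, interval from -0.25 to 0.73). The 19 genes of cholesterol efflux and lipid uptake had a median of -0.09. Npc1, a lysosomal cholesterol transporter, had -0.19 (-0.58 to 0.20). The efflux transporters Abca1 and Abcg1 had -0.18 (-0.98 to 0.62) and -0.33 (-1.01 to 0.35), and both were positive without untreated KO library 2 (0.15 and 0.07), which held 474.7 CPM of Abca1 against 219.4 to 254 CPM in the other untreated KO libraries. The 19 glycolysis genes had a median of -0.13, with 16 negative, and Gapdh, which had the smallest p of the list, had -0.27 (-0.81 to 0.28).

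In the lists that hold the 3 called genes, the other members were not called. Over all tested genes 0.0203% were called, so the lack of further calls does not set these lists apart. Of 38 tested genes of the small-subunit processome, Nol10 was the only one called. The median was 0.08, and the range of the other 37 was from -0.12 to 0.37 with all 37 intervals within 1 log2 unit of 0. Of the 38, 31 were positive, against 7427 of 14757 tested genes. With RLE size factors 27 were positive, against 6602 of all genes. Of 21 genes of polyamine synthesis and methionine salvage, Adi1 was the only one called and the median was 0.02. In the same list Amd1, S-adenosylmethionine decarboxylase, chosen after its values were seen, had 0.54 (0.03 to 1.04) at an unadjusted p of 0.0386, and the salvage enzymes Mtap, Mri1, Apip and Enoph1 had 0.03, -0.42, -0.12 and 0.02. Of 14 RING-between-RING ligases, Rnf144a was the only one called, the paralog Rnf144b had -0.40 and the median was -0.01.

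Of 28 cell cycle genes 0 were called, 2 were higher at an unadjusted p under 0.05, the median was -0.06 and 12 intervals lay within 1 log2 unit of 0. Over all tested genes, 0.0203% were called and 157 of 14757 were higher at such a p. Ccne1, cyclin E1, had the smallest p, with 0.73 (0.05 to 1.42), at 8.68 ± 3.30 and 3.19 ± 0.296 CPM in WT and 5.68 ± 1.29 and 3.46 ± 0.701 CPM in KO, untreated and after LPS (SD, n = 4). Egr1, an immediate early factor, had 0.54 (-0.27 to 1.35), Timp1, an inhibitor of matrix metalloproteinases, -0.59 (-1.47 to 0.29), Il4ra, the interleukin 4 receptor chain, -0.20 (-0.56 to 0.16), and G6pdx, of the pentose phosphate pathway, -0.12 (-0.36 to 0.12). The 15 macrophage identity genes had a median of -0.08, and Fcgr1, an Fc receptor, had the smallest p (-0.19, interval from -0.54 to 0.15).

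The genes with the largest LPS responses in WT moved in the same direction in KO, and their differences had wide intervals where the untreated level was near 0. Lipg, endothelial lipase, rose by a log2 fold change of 10.27 in WT and 9.69 in KO, a difference of -0.59 (-1.39 to 0.22). Cxcl9, a chemokine, had 0.27 (-1.46 to 2.00). Cebpa, which encodes a myeloid transcription factor, was among the strongest falls: it fell by 4.80 in WT and fell by 5.07 in KO on the log2 scale, a difference of -0.27 (-1.02 to 0.47). Arrb1, beta-arrestin 1, fell by 4.44 and fell by 4.75, a difference of -0.31 (-0.76 to 0.14). Of markers of other cell types, the 5 tested osteoclast genes ran from -0.53 for Acp5 (-1.11 to 0.04), which had the smallest p, to 2.07 for Dcstamp (-0.84 to 4.98), with 4 of 5 negative and a median of -0.11. The 5 tested fibroblast and endothelial genes ran from -0.71 for Cdh5 (-1.91 to 0.49) to 0.33 for Kdr (-0.21 to 0.87), which had the smallest p, with 2 of 5 negative and a median of 0.09. None of these 10 was called.

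**Figure D5:**
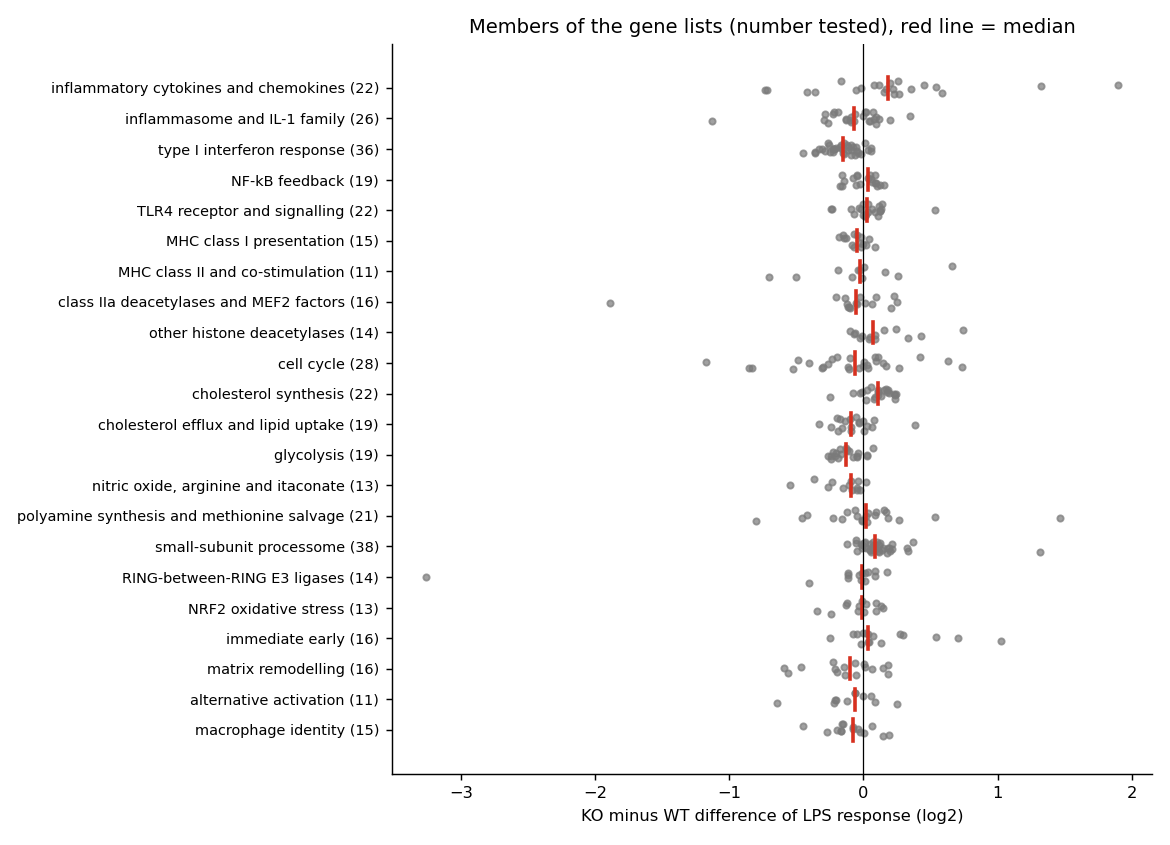
KO minus WT difference of the LPS response (log2) for each tested member (point) of 22 gene lists, with the number tested and the median (red line). Medians lie between -0.15 and 0.18, and the points farthest from 0 include Rnf144a (-3.26), Hdac9 (-1.89), Ifnb1 (1.90), Adi1 (1.47) and Nol10 (1.31).

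Since the numbers pair the libraries within a genotype, the response can also be read pair by pair, as log2 ratios of CPM + 0.5. For Nol10 the 4 ratios were 0.63, 0.82, 0.86 and 1.07 in WT and 1.93, 2.51, 1.97 and 2.15 in KO. For Rnf144a they were 1.76, 2.09, 1.67 and 1.53 in WT and -0.19, -0.30, -0.44 and -1.38 in KO, and for Adi1 -2.30, -2.47, -2.50 and -2.16 against -0.82, -1.16, -1.004 and -0.88. The WT and KO ratios did not overlap in these 3 genes, which had been called from the same counts, nor in Odc1 (0.69 to 0.88 in WT against 0.31 to 0.37 in KO). A 2-sided exact permutation test of 4 against 4 ratios gave 0.0286 for each of the 4, the smallest p it allows. After Benjamini-Hochberg adjustment over 20 genes this p was 0.143. For the 3 called genes the test is no separate evidence, because they entered it through their call. For genes at the smallest p, the adjusted value is set by how many of the 20 reached it, so no conclusion is drawn from it. The share of all tested genes without overlap of ratios was not computed. In the other 16 genes, among them Il1b, Nlrp3, Tnf and Il6, the ratios overlapped, with Nlrp3 at an exact p of 0.0857.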

How the data were processed

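The authors deposited raw counts, as whole numbers, for each gene and library. STAR, edgeR and build mm39 are named in the submitters' processing notes. The sources used here do not state tool versions, counter, strand setting or annotation. Of 56941 gene IDs, 51948 (91.2%) matched a symbol, and IDs without one held 0.562% to 3.44% of a library's counts. The members and gene lists, and the rule for named genes, were chosen with earlier results of these data known. Genes in the text are Hdac9, the called genes, the 8 smallest p in each direction at 5 CPM or more, 17 key genes, the smallest p of each list, the smallest p among genes that differed between KO and WT at both treatments, and the largest LPS responses. Some were left out, and Rsad2, Hpcal1, Amd1, Dcstamp, Cdh5 and the list members named beside a called gene or Hdac9 were chosen after their values were seen.

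A quasi-likelihood model was fitted to the 24 libraries together in edgeR 4.0.16 under R 4.3.3, with TMM scaling and 1 mean for each group. The edgeR filter (minimum count 10, minimum total 15) left 14757 genes. The difference of the LPS responses was tested by the F test, 2-sided, with Benjamini-Hochberg adjustment over all tested genes; SE is the absolute log2 fold change over the root of F. The fit was also run on simulated counts with known changes planted in better expressed genes. It met a limit on the mean error, called most of the larger planted changes, and called few genes where no change was planted. How many of the smaller planted changes were called was not part of this check. The simulated libraries were not paired by number. Replicate libraries were all distinct: counts differed by more than sampling noise in each pair by a chi-square statistic.

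Pairing was checked by correlating deviations from group means: same-numbered untreated and LPS libraries gave 0.313 to 0.382 in WT and 0.348 to 0.448 in KO, each highest with its own number, whereas same-numbered WT and KO libraries gave -0.162 to 0.395. The number was therefore used as a block within genotype in an alternative fit. Other alternatives were RLE factors, no filter, a filter of 1 CPM in 4 libraries, a block over all groups, the 16 libraries alone, DESeq2 1.42.0, and leaving out each library. Leaving out both KO libraries numbered 2, and the difference from dCIS, were chosen after seeing the data.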

Additional observations from a re-analysis of the deposited data

Results flagged for a closer look

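The 3 genes with a called difference between the LPS responses of KO and WT were Nol10 (1.31), Rnf144a (-3.26) and Adi1 (1.47), as log2 differences in edgeR.

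A single library stood apart from the other 3 of its group in 12 of 100 groups looked at (25 genes in 4 groups each), by Dixon's criterion, which chance meets in about 1 of 20 groups. In WT after LPS these were Nol10 at 37.9 CPM against 35.4 to 35.8 in the others, Hdac9 at 16.5 against 10.4 to 11.4, and Med21 at 26.0 against 32.3 to 33.5 CPM. In untreated WT Nlrp3 was at 81.8 CPM in 1 library against 52.1 to 54.1, and Tnf at 169 against 101.0 to 101.4 CPM. In untreated KO Nos2 was at 3.09 CPM against 0.194 to 0.235, Abca1 at 474.7 against 219.4 to 254, and Abcg1 at 153.7 against 61.9 to 73.5 CPM. In KO after LPS Tnf was at 2371 CPM against 1663 to 1729, Il10 at 101.7 against 73.4 to 75.2, Acod1 at 11513 against 10422 to 10485, and Abcg1 at 247.8 against 137.6 to 154 CPM.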

How the results depend on the processing

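The count of 3 called genes of 14757 tested (2 higher, 1 lower) became 12 of 36121 (8 higher, 4 lower) with no filter. It was 6 of 14757 (4 higher, 2 lower) with DESeq2. With the 16 libraries alone and the replicate block within genotype it was 6 of 14289 (5 higher). With the replicate block within genotype in the fit of all libraries it was 4, and with a block over all groups 3. Leaving out single libraries gave 2 to 4 called genes, 1 to 3 of them higher. Nol10 and Rnf144a stayed called in every one of the 25 alternatives run. Without a filter the calls included the mitochondrial ribosomal RNAs mt-Rnr1 and mt-Rnr2, Saa3, Tnfrsf14, Hdac9, Lcn2, Lrrfip1 and Ccdc39. Size factors by RLE moved the median of all genes to -0.03. Among genes that were not called, the sign changed when both KO libraries numbered 2 were left out for Tnf (-0.043), Cebpa (0.028), Casp1 (-0.011), Il18 (-0.016), Nos2 (1.93) and Il1a (-0.20). Leaving out single libraries gave ranges that cross 0 for Abcg1 (-0.57 to 0.069), Abca1 (-0.34 to 0.15), Il10 (-0.34 to 0.0099), Hpcal1 (-0.15 to 0.0037), Acp1 (-0.092 to 0.024), Nos2 (-1.29 to 1.85), Acod1 (-0.96 to 0.28), Cxcl9 (-0.16 to 0.60), Il1b (-0.24 to 0.73) and Il1a (-0.19 to 0.50). The cause was not tested. With 4 libraries per group and counts near 0 before LPS, the responses of Il6, Il12b, Ifnb1 and Nos2 were known to no better than their wide intervals.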
